A study of Arabidopsis thaliana with 12 samples.

Results

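The TRICHOME BIREFRINGENCE (TBR) and TRICHOME BIREFRINGENCE-LIKE (TBL) genes of Arabidopsis thaliana were followed in seedling roots. The roots came from an ARABIDILLO-1 overexpressor, a mutant of the 2 ARABIDILLO genes, and their wild types. A probe set, the group of probes on the array that reports 1 transcript, was taken as a member when its single gene carried the symbol or synonym TBR, or TBL followed by a number. No level of expression was required. The rule gave 25 probe sets for 24 genes, out of 22746 probe sets on the array that were not Affymetrix controls. Of these, 22 were found by the platform table's own symbol. The other 3 entered through synonyms, as 2 probe sets (266473_at and 266474_at) for TBL40, listed there as AT2G31110, and 1 for TBR, listed as AT5G06700. The gene table writes the name of TBR out in full rather than as the abbreviation. The other members were TBL15, TBL16, TBL18 to TBL21, TBL23, TBL25, TBL26, TBL28, TBL30, TBL32, TBL34 to TBL39, TBL41 to TBL43 and TBL45. The gene table of assembly TAIR10.1 holds 46 genes with such names, and the 22 without a named probe set, among them ESK1 (TBL29), AXY4 (TBL27), TBL3, TBL10 and PMR5 (TBL44), are not analysed here.

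TBL proteins sit mostly in the Golgi apparatus, where matrix polysaccharides of the plant cell wall are made. Most of those studied transfer acetyl groups onto hydroxyl groups of a particular polymer, such as xylan, xyloglucan, mannan or pectin. Acetyl groups alter how these polymers bind cellulose and how easily wall enzymes reach them. In xylan of secondary walls, where the family is best known, loss of acetyl groups weakens the water-conducting vessels.

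RNA came from roots of 7-day-old seedlings, grown at 24 °C under 16 h of light and 8 h of dark, and each of 12 samples was hybridised to its own ATH1 array. The 4 groups of 3 arrays were wild-type Col-0, ara1OX (35S:Ara1YFP in the Col-0 background), wild-type Col-3 (stock N908) and ara1/2mut (ara-1/2 in the Col-3 background). The 35S promoter is active in most cells, and how many independent lines were used is not given in the sources used here. ARABIDILLO proteins, which carry an F-box and Armadillo repeats, are known for promoting the formation of lateral roots. Neither ARABIDILLO gene had a named probe set, so the genotypes were not checked on their own transcripts. The replicates are numbered without a statement that they were grown separately, so the p-values rest on a sample-to-sample spread that may be purely technical.

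Among the arrays, 2 of ara1OX and 1 of ara1/2mut stood apart in ways that touch the results below. In ara1OX replicate 3 the probe sets for spiked-in hybridisation controls read 5.15 times the median array's value, and in the other 11 arrays 0.650 to 2.16 times. The array weights, which fall with an array's distance from its group, were lowest for ara1OX replicate 1 (0.531), ara1/2mut replicate 1 (0.550) and ara1OX replicate 3 (0.580). They ranged from 0.723 to 1.79 in the other 9. EXPA7 and EXPA18, expansin genes of root hairs and so markers of the labelled tissue, lay at percentiles 86.9 and 88.1 of all probe sets by mean signal. EXPA7 ran from 255 to 291 in ara1OX, above its range of 204 to 221 in Col-0, beside 5.86% of all probe sets wholly higher. EXPA18 overlapped, with 263 to 344 in ara1OX and 227 to 318 in Col-0. The part of these genes in the results was not tested. The inner root genes LBD16, JKD, LBD29 and PUCHI lay lower, at percentiles 62.1, 59.3, 43.7 and 43.3. The shoot genes RCA and LHCB4.1 were not near 0, at percentiles 70.5 and 72.6, with signals from 65.8 to 131 and from 74.7 to 228. No xylem or secondary wall marker of the 11 listed had a named probe set. In whole-root RNA, fewer cells of a type and less RNA per cell cannot be told apart.

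The family spanned nearly the whole range of signals. In MAS5 signal (arbitrary units, each array scaled to a trimmed mean of 100), TBL36, TBL38 and TBL25 were the brightest members, at percentiles 93.7, 92.2 and 81.3 of all probe sets. TBL39 was the remaining member above the 80th percentile, at 80.6. The 40th percentile, a signal of 22.4, was reached by 19 probe sets. Below it lay TBL19, TBL26, TBL42, TBL15, TBL20 and TBL43, called dim from here on. The signal of a probe set depends on its probes as well as on its transcript, so these positions do not rank the genes by amount of mRNA.

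**Figure D1:**
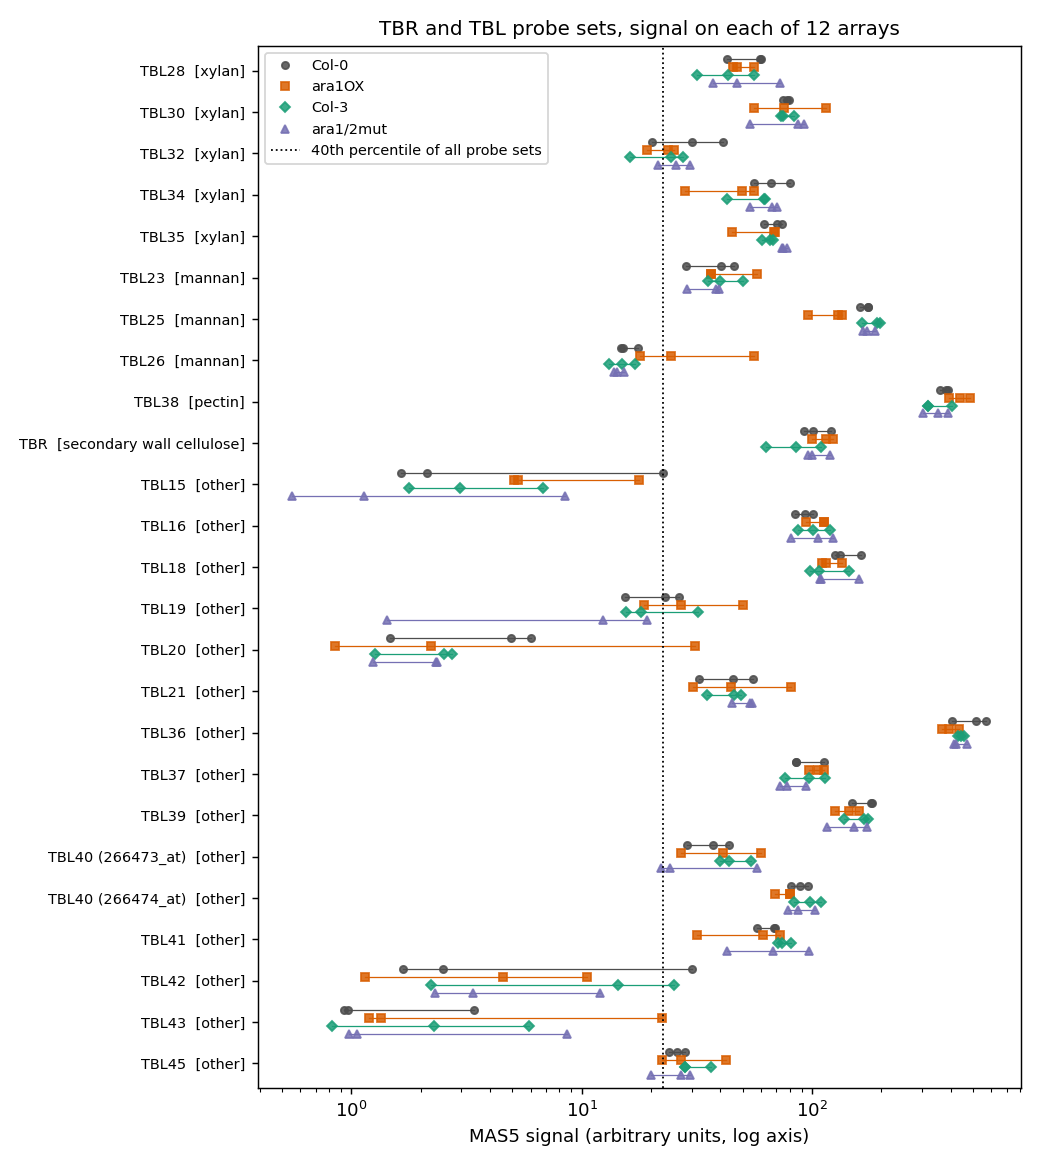
MAS5 signal (log axis) of the 25 TBR and TBL probe sets on each of the 12 arrays, with 3 points per group joined by a line over their range. Brackets give the polymer of members with a fixed role, secondary wall cellulose for TBR, and other for the rest. The 4 groups overlap or lie close together for most members, TBL25 is lower in ara1OX, and TBL15, TBL19, TBL20, TBL42 and TBL43, whose arrays lie mostly left of the dotted line (a signal of 22.4), spread furthest.

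TBL36 gave signals of 407, 567 and 515 in Col-0, 393, 434 and 367 in ara1OX, 456, 430.0 and 444 in Col-3, and 422, 411 and 471 in ara1/2mut (replicates 1, 2 and 3 in each list of this kind). The Col-0 arrays varied most, and all 4 groups overlapped at least 1 other. TBL38, an unusual member reported to act on the pectin homogalacturonan in the seed coat, gave 357, 381 and 390.1 in Col-0, 394, 484 and 440.0 in ara1OX, 407, 319 and 317 in Col-3, and 388, 303 and 353 in ara1/2mut. Over the 12 arrays its highest value was 1.59-fold its lowest, and that of TBL36 was 1.55-fold. TBR, the founding member, is needed for the cellulose-rich secondary wall that makes leaf hairs shine in polarised light. Its signals were 101, 92.1 and 121 in Col-0, 123, 114 and 100.3 in ara1OX, 84.7, 110 and 63.4 in Col-3, and 119, 100.3 and 95.5 in ara1/2mut. Its lowest array was Col-3 replicate 3, and the 4 groups overlapped.

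The weakest signals were those of TBL43 and TBL20, at percentiles 7.71 and 10.1. TBL43 gave 3.41, 0.925 and 0.965 in Col-0, 22.2, 1.20 and 1.35 in ara1OX, 0.825, 5.92 and 2.28 in Col-3, and 0.979, 1.05 and 8.67 in ara1/2mut. TBL20 gave 1.47, 6.01 and 4.92 in Col-0, 30.9, 0.853 and 2.22 in ara1OX, 2.53, 2.73 and 1.27 in Col-3, and 2.35, 2.32 and 1.25 in ara1/2mut. In both, ara1OX replicate 1 alone exceeded a signal of 10.

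The spread between arrays of a group followed the signal. The residual SD on the log2 scale had a median of 0.159 in the 4 members at or above the 80th percentile, 0.234 in the 8 from the 60th to the 80th, 0.356 in the 7 from the 40th to the 60th, and 1.56 in the 6 below. All probe sets in the same ranges had medians of 0.216, 0.267, 0.393 and 1.21. TBL42 had the largest residual SD of the family, 1.78, with signals of 1.68, 2.49 and 30.0 in Col-0, 10.6, 1.15 and 4.53 in ara1OX, 14.4, 25.1 and 2.22 in Col-3, and 2.31, 3.39 and 12.0 in ara1/2mut. TBL26 was the exception among the dim members, with a residual SD of 0.442.

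**Figure D2:**
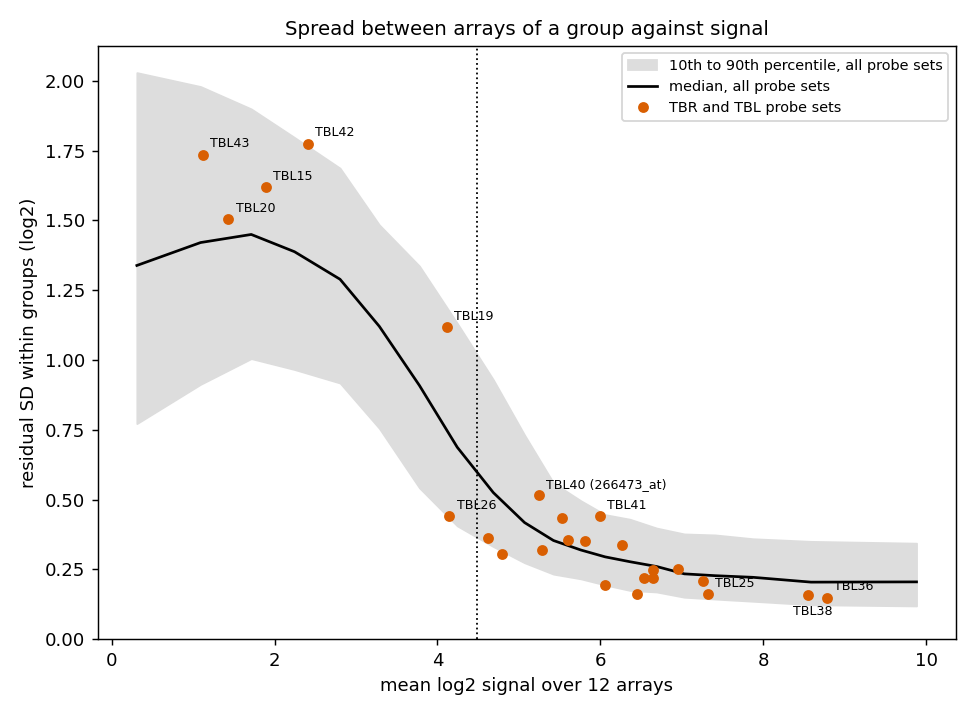
Residual SD within groups (log2) against mean log2 signal over 12 arrays for the 25 TBR and TBL probe sets (orange), with the median (line) and the 10th to 90th percentile (grey) of all 22746 probe sets. Members above the dotted 40th percentile lie between 0.149 and 0.515, and TBL43, TBL20, TBL15 and TBL42 at the dim end lie between 1.50 and 1.78.

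In ara1OX roots no member passed against Col-0. In limma, with a Benjamini-Hochberg adjusted p under 0.05 over all 22746 probe sets as the threshold, 0 of 25 members were called, beside 0.0176% of all probe sets. The 4 probe sets called were AT2G41730 and the unnamed 262454_at, 265032_at and 266815_at. AT2G41730 is outside the family, and the unnamed ones could not be matched by the rule. The smallest adjusted p of a member was 0.549. The unadjusted p was under 0.05 for 3 members (TBL25, TBL34 and TBL36, each lower), beside 6.41% of all probe sets, a share that would give 1.60 of 25. The log2 differences had a median of 0.11, with 14 above 0 and 11 below, and the median of all probe sets was 0.00. Among the 19 members at or above the 40th percentile the median was -0.12 and the range ran from -0.64 to 0.22, so the sign of the family median rested on the dim members.

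TBL25, which encodes a mannan O-acetyltransferase, had the smallest p. Its signals were 175, 161 and 175 in Col-0 and 134, 130 and 95.8 in ara1OX, so the highest ara1OX array lay below the lowest Col-0 array. They were 197, 190 and 165 in Col-3 and 166, 173 and 187 in ara1/2mut, where the groups overlapped. The log2 difference between ara1OX and Col-0 was -0.52 (SE 0.16, 95% interval -0.85 to -0.19), with an unadjusted limma p of 0.00430 and an adjusted p of 0.549. Leaving out ara1OX replicate 3, whose spike-in controls were high, gave -0.37.

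TBL34, which encodes a xylan O-acetyltransferase, gave 80.2, 66.0 and 55.7 in Col-0 and 49.7, 55.9 and 28.1 in ara1OX. The groups overlapped by a small margin, with ara1OX replicate 3 far below the rest. The log2 difference was -0.64 (SE 0.29, 95% interval -1.24 to -0.04, limma adjusted p 0.755), and it was -0.34 without that array. TBL36 differed by -0.31 (SE 0.14, 95% interval -0.61 to -0.01, limma adjusted p 0.757), and by -0.21 without Col-0 replicate 2. TBL26, another mannan O-acetyltransferase gene, gave 17.6, 15.1 and 14.8 in Col-0 and 24.5, 17.9 and 56.1 in ara1OX. Its ara1OX arrays all lay above its Col-0 arrays, but the lowest (17.9) was only just above the highest of Col-0 (17.6). The log2 difference between the group means was 0.88 (SE 0.50, limma adjusted p 0.813), which became 0.40 without ara1OX replicate 3. The part that the high spike-in signal of that array had in these differences was not tested.

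Groups without overlap were counted as a second description. In ara1OX 2 members, TBL26 and TBL38, lay wholly above Col-0, beside 5.86% of all probe sets, a share that would give 1.46 of 25. Both were apart by a narrow margin, with lowest ara1OX arrays of 17.9 and 394 against highest Col-0 arrays of 17.6 and 390.1. The 2 members wholly below were TBL25 and TBL40 (probe set 266474_at), beside 5.26%, a share that would give 1.31. TBL38 had a log2 difference of 0.22 (SE 0.15, limma adjusted p 0.835). By probe set 266474_at TBL40 gave 88.5, 80.6 and 95.9 in Col-0 and 80.5, 80.2 and 69.1 in ara1OX, groups that were apart by a narrow margin. Its log2 difference was -0.21 by that probe set and 0.18 by 266473_at (limma adjusted p 0.880 and 0.962), so its probe sets differed in sign.

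**Figure D3:**
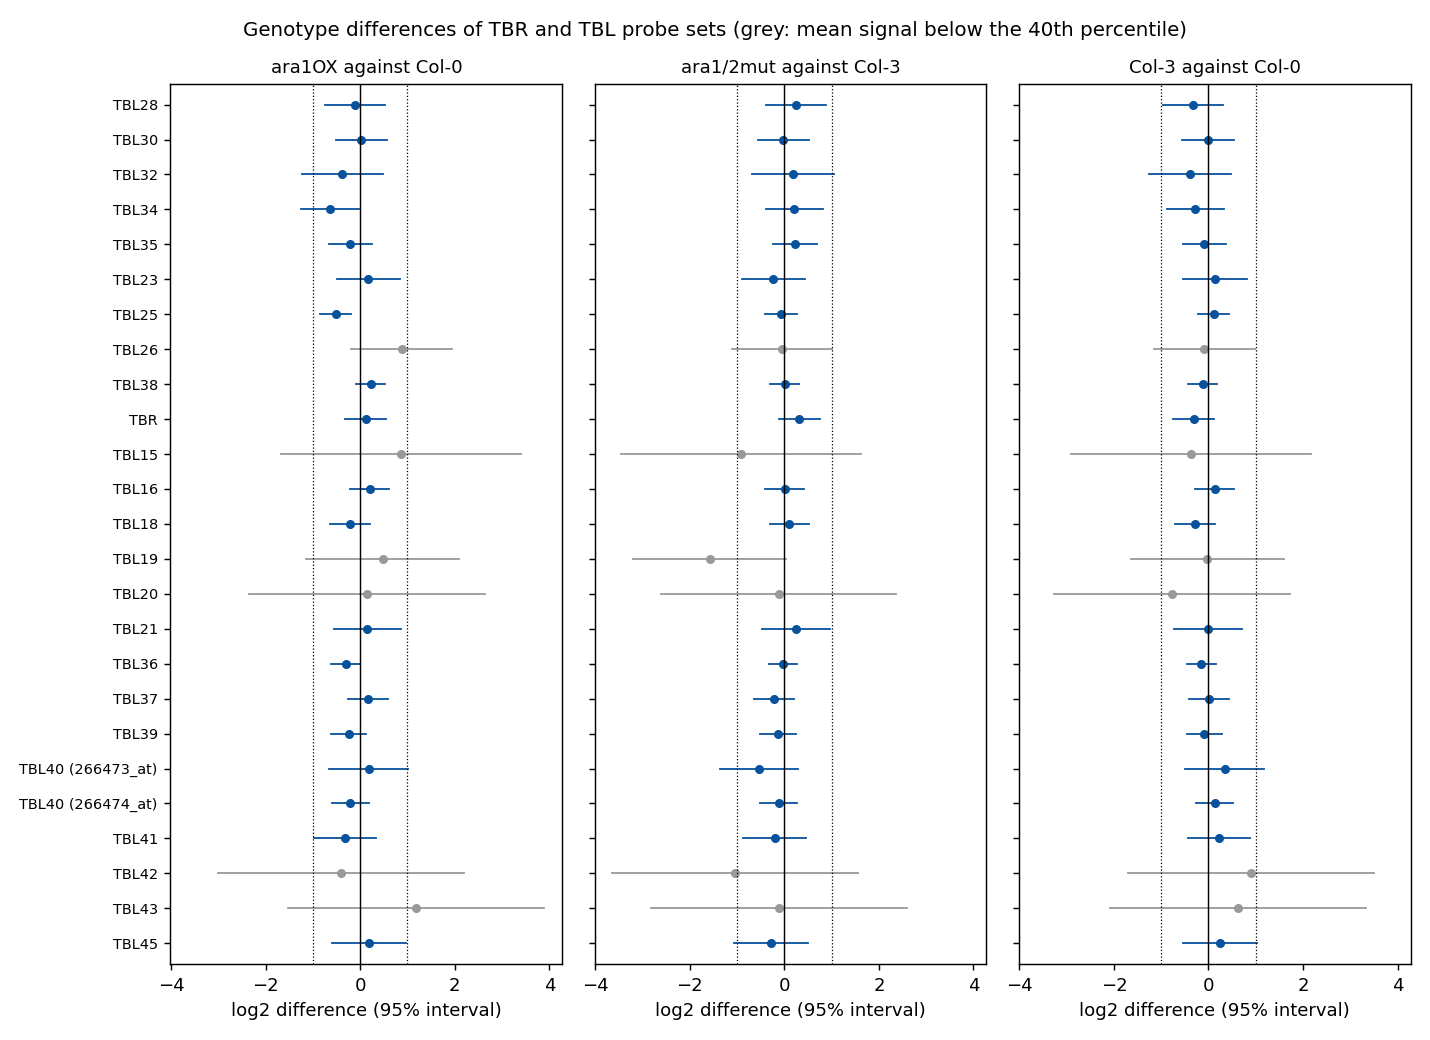
Log2 differences of the 25 TBR and TBL probe sets with their 95% intervals from limma for each altered line against its own wild type and for Col-3 against Col-0, with dotted lines at a 2-fold change and dim members in grey. In each panel 16 of 25 intervals lie within the dotted lines, and no member passed the adjusted test.

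How large a difference the arrays could have missed is given by the intervals. In ara1OX against Col-0, 16 of 25 lay inside a 2-fold change in either direction. The other 9 were the 6 dim members with TBL32, TBL34 and TBL40 (266473_at). In ara1/2mut against Col-3 and in Col-3 against Col-0 the number inside was again 16, with TBL45 in place of TBL34 among the 9 that reached further. For TBL15, TBL20, TBL42 and TBL43 the arrays set no useful limit, since the interval of TBL43 in ara1OX, for example, ran from -1.52 to 3.90.

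In ara1/2mut roots no member passed against Col-3 either, and at an adjusted p under 0.05 limma called 0 of all probe sets (0%). The unadjusted p was under 0.05 for 0 members, and the share of all probe sets, 3.33%, would give 0.833 of 25. The median log2 difference was -0.07, with 9 above 0 and 16 below, and 0.00 over all probe sets. With median centring of the arrays these counts were 7 and 18. Among the 19 brighter members the values ran from -0.53 to 0.32.

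The member with the smallest p in the mutant was TBL19, a dim one. Its signals were 18.1, 31.8 and 15.6 in Col-3 and 1.43, 12.4 and 19.2 in ara1/2mut, with the lowest value of all 12 arrays in ara1/2mut replicate 1. The log2 difference of -1.57 (SE 0.77, 95% interval -3.19 to 0.04, limma adjusted p 1.000) became -0.43 without that array. TBR differed by 0.32 (SE 0.21), and by 0.12 without Col-3 replicate 3, its lowest array. TBL40 differed by -0.53 (SE 0.39) by probe set 266473_at, where ara1/2mut gave 24.2, 57.8 and 22.2 and Col-3 gave 54.1, 43.4 and 39.8, and by -0.12 (SE 0.19) by 266474_at. The xylan gene TBL35 was the 1 member whose groups did not overlap, with 67.6, 60.5 and 65.9 in Col-3 and 74.2, 75.0 and 77.6 in ara1/2mut, beside 4.61% of all probe sets wholly higher, a share that would give 1.15 of 25. Its log2 difference was 0.23 (SE 0.22, limma adjusted p 1.000). No member lay wholly below Col-3, as 4.14% of all probe sets did.

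When wild-type Col-3 was set against wild-type Col-0, limma called 0 of 25 members and 0% of all probe sets. None had an unadjusted p under 0.05, beside 4.55% of all probe sets. The median of the family was -0.02, with 10 above 0 and 15 below. The smallest p-values belonged to TBR at -0.31 (SE 0.21), TBL18 at -0.28 (SE 0.20) and the xylan gene TBL28 at -0.33 (SE 0.30), each with a limma adjusted p of 1.000. Leaving out 1 array brought TBR to -0.11 (Col-3 replicate 3), TBL18 to -0.16 (Col-0 replicate 1) and TBL28 to -0.12 (Col-3 replicate 1). TBL18 gave 164, 125 and 132 in Col-0 and 107, 144 and 98.3 in Col-3, and TBL28 gave 42.7, 59.1 and 60.2 against 31.7, 55.8 and 43.1, so both pairs of groups overlapped. TBL41 was the 1 member wholly higher in Col-3, with 81.0, 74.0 and 71.4 against 69.0, 68.2 and 57.9 in Col-0, beside 5.95% of all probe sets. None was wholly lower, as 5.74% of all probe sets were.

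The difference of ara1OX from Col-0 was also set against that of ara1/2mut from Col-3. No member passed, with 0.00879% of all probe sets called in limma, and 0 members had an unadjusted p under 0.05, beside 5.27%. The 2 probe sets called were the unnamed 265032_at and 266815_at, which the rule could not match. The smallest adjusted p was 0.928, and 10 of 25 intervals lay inside a 2-fold change. TBL34 differed by -0.84 (SE 0.40, 95% interval -1.70 to 0.01), TBL25 by -0.45 (SE 0.22, 95% interval -0.93 to 0.02) and TBL19 by 2.05 (SE 1.09, 95% interval -0.24 to 4.34). The value of TBL34 was -0.54 without ara1OX replicate 3, that of TBL25 was -0.30 without the same array, and that of TBL19 was 0.90 without ara1/2mut replicate 1.

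By the polymer they act on, the 5 measured genes of xylan acetylation (of 9 listed) were TBL28, TBL30, TBL32, TBL34 and TBL35. None passed in any comparison. Against Col-0 in ara1OX they had log2 differences of -0.12, 0.03, -0.38, -0.64 and -0.21 in that order, with a median of -0.21. Single arrays moved these values, since without 1 array TBL28 ran from -0.28 to -0.030, TBL32 from -0.65 to -0.13 and TBL35 from -0.31 to -0.0015, the last without ara1OX replicate 2. Against Col-3 in ara1/2mut they had 0.25, -0.02, 0.19, 0.21 and 0.23, with a median of 0.21, and Col-3 against Col-0 gave -0.33, -0.01, -0.39, -0.28 and -0.09. The last comparison shares its Col-3 arrays with the second and its Col-0 arrays with the first. Limma adjusted p-values in the group were no smaller than 0.755. The probe set of TBL32 carries the suffix s, which marks probes shared by several transcripts, so its signal may not be that of TBL32 alone. TBL30 had Col-0 signals of 74.8, 77.6 and 79.6, its ara1OX signals of 56.2, 75.7 and 115 enclosed them, and ara1/2mut gave 53.8, 91.9 and 87.2 against 74.5, 83.1 and 73.3 in Col-3. TBL32 gave 41.2, 20.1 and 30.1 in Col-0, 23.7, 25.1 and 19.2 in ara1OX, 27.6, 24.4 and 16.2 in Col-3, and 29.6, 25.7 and 21.3 in ara1/2mut. Both genes overlapped in all groups.

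Of the 4 listed mannan O-acetyltransferase genes, 3 were measured and none passed. TBL23, TBL25 and TBL26 had log2 differences of 0.18, -0.52 and 0.88 in ara1OX, so they did not share a direction, and of -0.23, -0.07 and -0.05 in ara1/2mut. TBL23 gave 40.4, 28.4 and 46.0 in Col-0 and 57.5, 36.4 and 36.3 in ara1OX, with overlap. TBL26 gave 13.1, 16.9 and 14.9 in Col-3 and 15.2, 14.3 and 13.8 in ara1/2mut, all below the 40th percentile signal. Of the 3 pectin genes TBL38 was measured, with a log2 difference of 0.00 (SE 0.15, 95% interval -0.30 to 0.31) in ara1/2mut and the value given above in ara1OX. TBR had 0.11 (SE 0.21) in ara1OX. Neither of the 2 xyloglucan O-acetyltransferase genes, TBL22 and TBL27, is analysed here.

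Single arrays held many of the extreme values. Of the 25 members, 9 had their highest or lowest of the 12 values in ara1OX replicate 3, lowest for TBL21, TBL25, TBL34, TBL36, TBL40 (266474_at) and TBL41 and highest for TBL26, TBL30 and TBL45. That array was lowest for 14.0% and highest for 14.1% of all probe sets, so a large share of extremes there was not limited to the family. In ara1OX replicate 1, 6 members were at their highest (TBR, TBL19, TBL20, TBL21, TBL23 and TBL43) and none at their lowest, beside 15.9% and 11.3% of all probe sets. In ara1/2mut replicate 1, 6 members were at their lowest (TBL15, TBL16, TBL19, TBL30, TBL37 and TBL39) and none at their highest, beside 12.0% and 12.6%. Col-3 replicate 2 held no member's extreme, although it was highest for 12.3% of all probe sets.

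**Figure D4:**
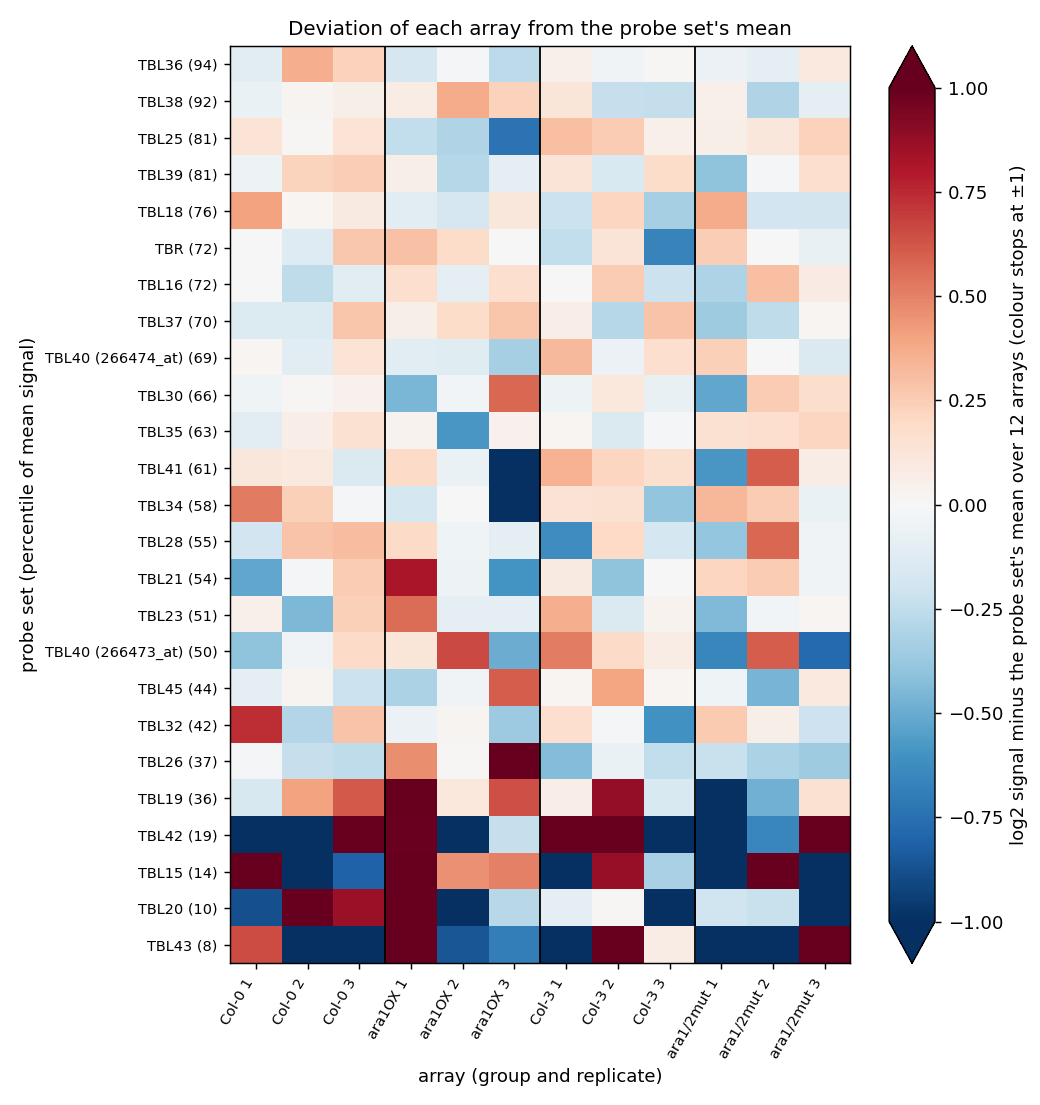
Log2 signal of each array minus the probe set's mean over the 12 arrays, for the 25 TBR and TBL probe sets ordered by percentile of mean signal (in brackets), with black lines between groups and the colour scale ending at 1 log2 unit. Colours change within groups as much as between them, and ara1OX replicate 3 is low for TBL25, TBL34 and TBL41. At the bottom TBL15, TBL20, TBL42 and TBL43 pass the ends of the scale on several arrays. The dim TBL19 passes them only in ara1OX replicate 1 and ara1/2mut replicate 1, and the dim TBL26 only in ara1OX replicate 3.

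In the gene table, 2 pairs of members are next to each other in the order of protein-coding genes, TBL19 with TBL21 and TBL28 with TBL30. In ara1OX replicate 1 both TBL19 (49.9) and TBL21 (81.3) had their highest value of the 12 arrays. Against Col-3 in ara1/2mut they had log2 differences of opposite sign, -1.57 for TBL19 and 0.25 (SE 0.34) for TBL21. TBL28 and TBL30 had 0.25 (SE 0.30) and -0.02 (SE 0.26) there. The members without a fixed polymer that have not been described one by one, TBL15, TBL16, TBL37, TBL39 and TBL45, overlapped between the groups in all 3 comparisons. In ara1OX their log2 differences were 0.20 for TBL16, 0.17 for TBL37, -0.25 for TBL39, 0.18 for TBL45 and 0.87 for TBL15, with limma adjusted p-values of 0.847 or more. In ara1/2mut TBL37, TBL39, TBL45 and TBL15 had -0.22, -0.13, -0.28 and -0.92. TBL16, TBL37 and TBL39 ranged over 1.53-fold, 1.56-fold and 1.57-fold across the 12 arrays, TBL45 over 2.11-fold and the dim TBL15 over 40.5-fold.

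Other genes of wall polysaccharides were read from lists of 58 genes, 11 of which had a named probe set. None of the 11 passed in any of the 4 comparisons, and their median log2 difference was -0.07 in ara1OX, -0.08 in ara1/2mut and -0.07 in Col-3 against Col-0. The 4 measured genes of xylan synthesis, IRX10 and IRX10L of the xylan backbone (GUT2 and GUT1 in the platform table) with IRX15 and IRX15L, ran from -0.43 to -0.16 in ara1OX, with a median of -0.32, and from -0.08 to 0.14 in ara1/2mut. Col-3 also gave values below 0 for all 4 against the same Col-0 arrays, from -0.57 to -0.04 with a median of -0.26. IRX15L had -0.43 (SE 0.32) and IRX10 -0.25 (SE 0.19) in ara1OX, with limma adjusted p-values of 0.854. Without 1 Col-0 array they ran from -0.67 to -0.18 and from -0.32 to -0.15. The 4 pectin acetylesterase genes, whose products remove acetyl groups, ran from -0.15 to 0.43 in ara1OX and from -0.41 to 0.33 in ara1/2mut. PAE2, the highest of them in ara1OX, had a limma adjusted p of 0.893. In ara1/2mut PAE12 had 0.33 (SE 0.18), or 0.21 without Col-3 replicate 3, and in Col-3 against Col-0 it had -0.53 (SE 0.18, limma adjusted p 1.000). Its signals were 160.4, 172 and 193 in Col-0, 142, 121 and 102 in Col-3, and 127, 169 and 162 in ara1/2mut. Of the 11 genes, PAE12, PAE2 and IRX10 had Col-3 arrays wholly below the Col-0 arrays and AXY9 wholly above, beside 5.74% and 5.95% of all probe sets. In ara1OX PAE2 lay wholly above Col-0 and IRX10 wholly below, beside 5.86% and 5.26%, and in ara1/2mut none of the 11 was apart from Col-3. AXY9, needed for acetylation of several wall polymers, was the 1 gene measured of 5 that supply acetyl groups, with 0.23, -0.12 and 0.45 in ara1OX, ara1/2mut and Col-3 against Col-0. The last was 0.24 without Col-0 replicate 2. The mannan synthase gene CSLA3 and the xyloglucan glucan synthase gene CSLC4 had -0.07 and 0.06 in ara1OX and -0.44 and -0.08 in ara1/2mut. No listed gene of pectin synthesis (of 5) or cellulose synthase (of 10) is analysed here.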

How the data were processed

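The authors deposited 1 table of MAS5 signal intensities on a linear scale, per the submitters' processing notes, for 12 arrays. The sources used here give neither the version of MAS5 nor its target value. Every array had a trimmed mean of 100 after leaving out 2% at each end, so a shift shared by all transcripts would be hidden. Detection calls were not used here.

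The 64 control probe sets were left out and log2 signal was analysed without further normalization or filter. All 12 arrays entered 1 model in limma 3.58.1 (R 4.3.3) with a coefficient per group and a variance trend (residual degrees of freedom 8, prior 9.08). P-values are two-sided, adjusted by Benjamini-Hochberg over 22746 probe sets. Precision is limited by the number of arrays. The platform table lists 14016 probe sets, of which 13513 had 1 gene and 503 several, and 13436 matched the TAIR10.1 gene table, used only for names and gene order. The procedure was tested on simulated data.

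The members, gene lists and naming rule were chosen with earlier results of these data known, so lists got no test. Values per array were given for the 3 members of smallest p per comparison, the 3 brightest, the 2 dimmest, and the one with the largest residual SD. They were also given for members with a fixed role. For several members, such as TBL23, TBL28, TBL34 and TBL35, only some of the groups were given. The values of TBL21, TBL41 and probe set 266474_at of TBL40 were added after they were seen, as were the wall genes whose groups did not overlap. For the wall polysaccharide lists, the 3 genes of smallest p per comparison were checked under the alternatives. Alternatives were quantile normalization, median centring, filters at the 40th and 60th percentile, array weights, a pseudocount of 16, a fit of the compared groups, a constant prior variance, the replicate number as a block, and leaving out each array.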

Additional observations from a re-analysis of the deposited data

How the results depend on the processing

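No TBR or TBL member was called in any of the 4 comparisons under any of the 9 alternatives or the 12 fits without 1 array. The fit of the compared groups was not run for the difference between the lines, and the filters left members below them untested. The smallest adjusted p, 0.275, was that of TBL25 in ara1OX without ara1OX replicate 2. The wall polysaccharide genes also gave 0 calls throughout. In ara1OX the family median of 0.11 became -0.12 and -0.21 with filters at the 40th and 60th percentile, which leave out dim members, and ran from -0.20 to 0.20 when 1 array was left out. In the difference between the lines the median of 0.05 became -0.11 with either filter and -0.12 with array weights, and ran from -0.13 to 0.20. Calls over all probe sets in ara1OX, 4 in the report, were 1 without the variance trend, 9 in the fit of the groups compared and 3 to 15 when 1 array was left out (15 without ara1/2mut replicate 1 and 10 without ara1OX replicate 2). In ara1/2mut they ran from 0 to 1 (1 without Col-3 replicate 2 or 3) and between the wild types from 0 to 2 (2 without Col-3 replicate 2). For the difference between the lines they were 1 with median centring, 0 without the variance trend and 0 to 2 when 1 array was left out (0 without ara1OX replicate 2 or Col-3 replicate 2).

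With the replicate block 19 probe sets were called in ara1OX and 1 in ara1/2mut, none of them members. Deviations from the group means correlated with r over 0.1 in 10 of 18 pairs of same-numbered arrays (median 0.13) and in 3 of 36 pairs with different numbers (median -0.037). The 10 were 5 of 6 pairs for replicate 1, 5 of 6 for replicate 3 and 0 of 6 for replicate 2. This hints at shared sets for replicates 1 and 3. The comparison is weak, because the deviations of a group sum to 0, so positive same-numbered pairs push the different-numbered ones below 0. The numbers were used as pairs only if every same-numbered pair passed 0.1, and the labels do not state a shared batch.

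Some single values changed sign, and the causes were not tested. With array weights TBL20 had -0.84 in ara1OX, and TBL30, TBL38 and TBL43 had 0.10, -0.068 and 0.42 in ara1/2mut. There TBL20 had 0.10 with quantile normalization, TBL38 -0.0131 with median centring and TBL43 0.0278 with the pseudocount. When 1 array was left out, the ara1OX values ran from -1.35 to 1.24 for TBL20, -0.045 to 0.32 for TBL23, -0.24 to 0.27 for TBL30, -1.19 to 0.89 for TBL42 and -0.19 to 1.92 for TBL43. In ara1/2mut they ran from -0.47 to 0.18 for TBL20, -0.14 to 0.043 for TBL26, -0.014 to 0.47 for TBL28, -0.17 to 0.22 for TBL30, -0.037 to 0.35 for TBL32, -0.090 to 0.0085 for TBL36, -0.078 to 0.12 for TBL38, -1.14 to 0.60 for TBL43 and -0.91 to 0.14 for CSLA3. Low signal limits what can be said of TBL15, TBL19, TBL20, TBL42 and TBL43.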
